A study of Mus musculus with 10 samples.

Results

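The 9 genes Bcl11b, Fezf2, Etv1, Tbr1, Foxp2, Tle4, Sox5, Syt6 and Nxph4, which mark the projection neurons of the deep cortical layers, were followed in the prefrontal cortex of Arid1b mutant mice. They were taken by symbol from a table of 18216 genes, and all 9 were found and measured well enough to be tested. RNA sequencing compared 5 heterozygous Arid1b+/- males (HT1 to HT5) with 5 wild-type males (WT1 to WT5), all C57BL/6N mice at postnatal day 10, with 1 library per mouse and no drug treatment in either group. The HT mice carried, in the germline and so in every cell, 1 copy of Arid1b with a protein-truncating change made by CRISPR, and they were bred by crossing heterozygous males with wild-type females. The comparison asked how the loss of 1 copy of Arid1b, which belongs to the BAF remodeller of chromatin, alters cortical gene expression early in life. Because whole tissue was sequenced, fewer cells of a type and less RNA per cell cannot be told apart.

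The deep layers of the cortex, layers V and VI, hold the neurons whose axons leave the cortex. Layer V neurons project to the brainstem, spinal cord and striatum, and layer VI neurons project mainly to the thalamus. A small network of transcription factors sets these identities. Fezf2 drives the subcerebral programme and acts through Bcl11b (Ctip2), Tbr1 drives the corticothalamic programme and represses Fezf2 and Bcl11b, and Sox5 controls the order in which the deep-layer neurons are made. Bcl11b and Foxp2 are also known as genes of the medium spiny neurons of the striatum, so that neither is exclusive to the cortex.

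Values are normalised counts, that is, estimated read counts divided by a size factor for each library. They summed to between 31106330 and 32106791 per mouse. Sequencing depth is unknown, so the error of each value was taken from the spread between mice. Correlations between libraries ranged from 0.981 to 0.99 on the log2 scale. The cortical label was checked against Slc17a7, the vesicular glutamate transporter of cortical excitatory neurons, which was at 37828 to 52447 in every mouse. Arid1b itself was at 1938, 1767, 1987, 1849 and 1929 in HT1 to HT5 and at 3018, 2807, 2775, 2949 and 2662 in WT1 to WT5. No HT mouse overlapped a WT mouse. On average HT mice had 66.6% of the WT level (log2 fold change -0.59, SE 0.05, limma adjusted p = 9.96e-05). Fold changes throughout are HT against WT on the log2(value + 1) scale.

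Levels of the 9 genes were compared with each other in the WT mice after division by the exonic length of each gene in kilobases. This length is the union of all annotated exons, from 1675 bases for Nxph4 to 16346 for Foxp2. Annotated exons that are not used in this tissue lower the level, so the order depends on the annotation. Tbr1, a T-box transcription factor, had the highest level at 726 ± 51.8 normalised counts per kilobase (SD, n = 5). It stood at percentile 88.0 of all tested genes. Fezf2, a zinc finger factor, was next at 433 ± 51.6, followed by the corepressor Tle4 at 350 ± 12.9. Bcl11b, another zinc finger factor, had 321 ± 42.4, the synaptotagmin Syt6 had 275 ± 41.2 and the ETS factor Etv1 had 269 ± 27.0 per kilobase. From Tle4 to Etv1 each gene overlapped its neighbour in the range over WT mice, so that neighbours could not be put in order, although the range of Tle4 (328 to 362) lay above that of Etv1 (243 to 310). Fezf2 (378 to 490) lay above Tle4 but overlapped Bcl11b (283 to 387). Sox5, an SRY-box factor, was lower at 154 ± 15.0 per kilobase and overlapped neither neighbour. The lowest levels were those of Nxph4, a secreted neurexophilin that binds neurexins, at 53.6 ± 16.0, and of the forkhead factor Foxp2 at 36.4 ± 4.1, and these 2 overlapped. Foxp2 stood at percentile 27.7 of tested genes. Before the division by length the WT mean was 595 for Foxp2 and 89.7 for Nxph4.

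**Figure D1:**
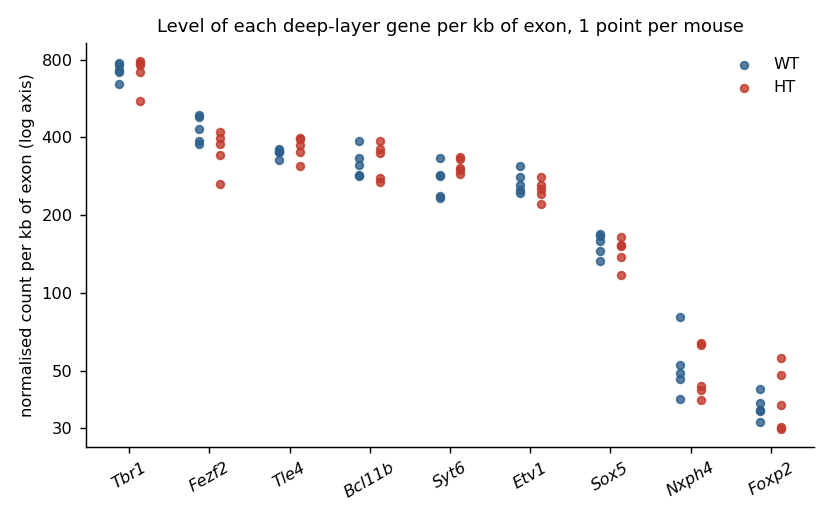
Normalised counts per kilobase of exon (log axis) for each of the 9 deep-layer genes, with 1 point per mouse, WT in blue and HT in red side by side. Tbr1 stands highest with a WT mean of 726 and Foxp2 lowest with 36.4, and HT and WT points overlap in every gene.

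None of the 9 genes differed between HT and WT mice at an adjusted p under 0.05 in limma. Over all 16781 genes tested, 3 passed (0.0179%), namely Arid1b, Dynlt1b and Tmem181b-ps. At an unadjusted limma p under 0.05 there were 2 members, against 9.23% of all tested genes. One of them, Syt6, was higher in HT mice (background 4.71%) and 1, Fezf2, was lower (background 4.52%). In none of the 9 were the 5 HT values separated from the 5 WT values, which was the case for 1.62% of tested genes, and the exact permutation test gave no member a p under 0.05, the lowest being 0.0873. Mean log2 levels were higher in HT for 4 members and lower for 5. The median log2 fold change was -0.02 over the members and -0.004 over all tested genes, of which 48.8% were higher in HT. The widest 95% interval of any member reached a log2 difference of 0.52, so that differences of that size were not excluded for a lower level of Nxph4 or of Fezf2 in HT.

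**Figure D2:**
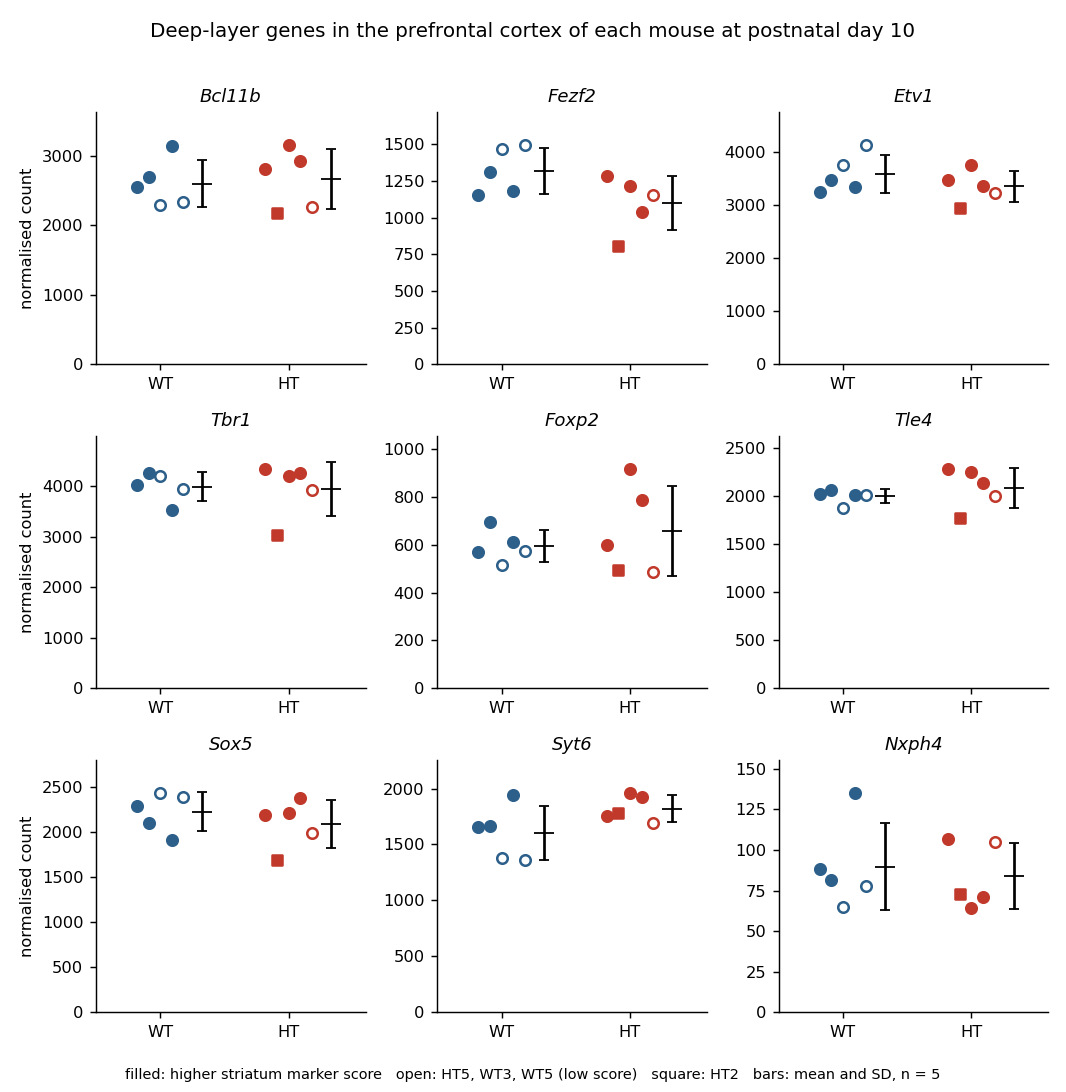
Normalised counts (linear axes) of the 9 deep-layer genes in each of the 5 HT and 5 WT mice, 1 panel per gene, with group means ± SD. Squares mark HT2 and open circles HT5, WT3 and WT5. HT2 is the lowest mouse in 6 of the panels, and in no panel are the groups separate.

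Among the 3 layer V members, Fezf2 (ENSMUSG00000021743, GRCm38 chr14:12342094-12348189, minus strand), the selector of subcerebral identity, had the largest difference. It was at 1284, 806, 1215, 1040 and 1152 normalised counts in HT1 to HT5 and at 1153, 1310, 1467, 1179 and 1492 in WT1 to WT5. The groups overlapped, and 3 of 5 HT mice lay below the lowest WT mouse. The HT mean of 1099 ± 187 (SD, n = 5) was 83.3% of the WT mean of 1320 ± 157. The log2 fold change was -0.27 (SE 0.12, 95% interval -0.52 to -0.03), which did not pass after adjustment (limma p = 0.0327, adjusted p = 0.511, exact permutation p = 0.0873). Leaving out HT2, the lowest mouse, gave a log2 fold change of -0.17.

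Bcl11b (ENSMUSG00000048251, chr12:107910403-108003602, minus strand), which acts downstream of Fezf2 in corticospinal neurons, was at 2815, 2177, 3152, 2922 and 2260 in HT1 to HT5. In WT1 to WT5 it was at 2546, 2696, 2296, 3143 and 2329. High and low mice occurred in both groups, and the HT mean of 2665 ± 427 was 102% of the WT mean of 2602 ± 344. The log2 fold change was 0.03 (SE 0.11, 95% interval -0.20 to 0.26, limma adjusted p = 0.941). The interval does not reach the size of the Arid1b difference in either direction.

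Etv1 (ENSMUSG00000004151, chr12:38779380-38870484, plus strand), also known as Er81 and used as a marker of layer V, was at 3470, 2935, 3740, 3358 and 3214 in HT1 to HT5. In WT1 to WT5 it was at 3230, 3470, 3752, 3329 and 4117. HT2 was the lowest and WT5 the highest mouse. Means were 3343 ± 299 in HT and 3580 ± 359 in WT (log2 fold change -0.10, SE 0.07, limma adjusted p = 0.667).

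Of the layer VI genes, Tbr1 (ENSMUSG00000035033, chr2:61802930-61814114, plus strand) was at 4332, 3032, 4192, 4252 and 3924 in HT1 to HT5 and at 4016, 4252, 4190, 3530 and 3935 in WT1 to WT5. Apart from HT2 the HT mice lay within or slightly above the WT range. The HT mean came to 99.0% of that in WT (log2 fold change -0.02, SE 0.09, 95% interval -0.21 to 0.17, limma adjusted p = 0.942). Leaving out HT2 turned the sign, with a log2 fold change of 0.07.

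Tle4 (ENSMUSG00000024642, chr19:14448150-14598051, minus strand), a Groucho-type corepressor retained in corticothalamic neurons, was at 2277, 1774, 2249, 2138 and 1994 in HT1 to HT5. It was at 2024, 2066, 1871, 2011 and 2005 in WT1 to WT5, the tightest WT group of the layer VI members in proportion to its mean. HT mice stood both above and below this narrow WT range. Means were 2086 ± 207 and 1995 ± 73.6, and the log2 fold change was 0.06 (SE 0.06, limma adjusted p = 0.771).

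Sox5 (ENSMUSG00000041540, chr6:143828425-144781977, minus strand) was at 2185, 1681, 2209, 2372 and 1989 in HT1 to HT5 and at 2284, 2097, 2426, 1909 and 2385 in WT1 to WT5. HT2 was again the lowest mouse. The log2 fold change was -0.09 (SE 0.09, 95% interval -0.29 to 0.10, limma adjusted p = 0.732).

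Foxp2 (ENSMUSG00000029563, chr6:14901349-15441977, plus strand) was at 601, 497, 917, 790 and 487 in HT1 to HT5 and at 569, 698, 518, 614 and 575 in WT1 to WT5. The HT values enclosed the WT range, with HT3 and HT4 above every WT mouse and HT2 and HT5 below. The coefficient of variation was 28.7% in HT and 11.3% in WT. Means were 658 ± 189 and 595 ± 67.0, with a log2 fold change of 0.11 (SE 0.16, 95% interval -0.23 to 0.44, limma adjusted p = 0.837). The difference in spread was not tested.

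Syt6 (ENSMUSG00000027849, chr3:103575231-103645569, plus strand), a synaptotagmin found in corticothalamic neurons, was at 1751, 1778, 1958, 1928 and 1688 in HT1 to HT5. It was at 1659, 1666, 1382, 1944 and 1361 in WT1 to WT5. The WT mice were spread more widely, with WT3 and WT5 lowest and WT4 within the HT range. The HT mean of 1821 ± 117 was 114% of the WT mean of 1602 ± 240. The log2 fold change was 0.19 (SE 0.09, 95% interval 0.01 to 0.38), which did not pass after adjustment (limma p = 0.0445, adjusted p = 0.528, exact permutation p = 0.0952).

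Nxph4 (ENSMUSG00000040258, chr10:127525473-127534559, minus strand) had the lowest normalised counts of the 9 genes, at 107, 73.1, 64.3, 70.8 and 105 in HT1 to HT5. In WT1 to WT5 it was at 88.5, 81.8, 65.0, 135 and 78.1. The groups overlapped, at 64.3 to 107 in HT and 65.0 to 135 in WT, and WT4 was the highest mouse. The log2 fold change was -0.08 (SE 0.20, 95% interval -0.52 to 0.36, limma adjusted p = 0.911).

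**Figure D3:**
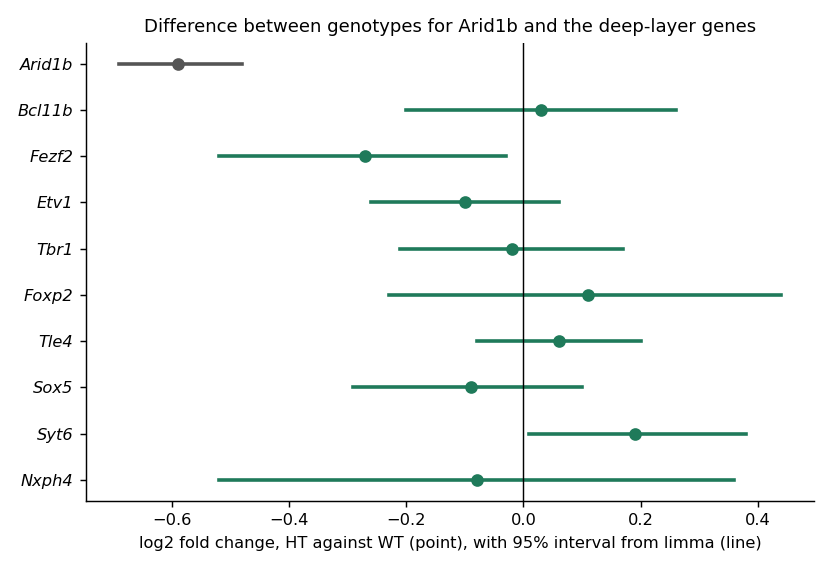
Log2 fold change, HT against WT, of Arid1b and the 9 deep-layer genes, with 95% limma intervals. The Arid1b interval runs from -0.69 to -0.48, whereas the intervals of the deep-layer genes include 0, except those of Fezf2 (-0.52 to -0.03) and Syt6 (0.01 to 0.38), neither of which passed after adjustment.

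HT2 had low values in most of these genes. It was the lowest of the 10 mice for Bcl11b, Fezf2, Etv1, Tbr1, Tle4 and Sox5, that is for 6 of 9 members, whereas 21.8% of all tested genes (3655) were lowest in HT2. The same mouse was lowest in the summed level of 12 other layer V genes (13563 against 15320 to 17216) and of 11 other layer VI genes (22496 against 24883 to 27549). Foxp2 was second lowest in HT2, and Syt6 and Nxph4 were not among its low genes. Other features of that library moved with this. Mitochondrially encoded transcripts accounted for 8.43% of its normalised counts against 5.15% to 6.76% in the other mice, and Slc17a7 was at 37828 against 41303 to 52447. The summed levels of 9 tested olfactory bulb markers were 3889 in HT2 and 3703 in WT4, against 757 to 2175 in the other 8 mice. HT2 also had the highest sums of 10 astrocyte markers (210707), 10 microglia markers (15727) and 10 endothelial and mural markers (21130). Their part in the low deep-layer values of HT2 was not tested. With the olfactory bulb score as a covariate, chosen after the data were seen, the log2 fold change was -0.20 for Fezf2 and 0.17 for Syt6.

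The level of striatum markers also varied between mice. The sum of 15 striatum markers, including the dopamine receptors Drd1 and Drd2 and the phosphatase inhibitor Ppp1r1b, was 18568, 15914, 24751, 22134 and 7975 in HT1 to HT5. It was 16263, 17372, 7002, 19536 and 7375 in WT1 to WT5. HT5, WT3 and WT5 thus formed a low set and the other 7 mice (4 HT, 3 WT) a high set, separated by 1.39 in the mean z-score of the markers where the next largest gap was 0.241. Sums ranged from 7975 to 24751 in HT and from 7002 to 19536 in WT, and no marker was at 0 in every mouse.

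Every member overlapped between these sets, and the differences between them were not tested. Bcl11b and Tle4 were apart once HT2 was left out. Bcl11b was at 2260 to 2329 in the 3 low mice and at 2546 to 3152 in the high set without HT2, which had 2177. Tle4 was likewise at 1871 to 2005 in the low mice and at 2011 to 2277 in the high set without HT2, which had 1774. Foxp2 and Syt6 overlapped between the sets. Foxp2 was at 487 to 575 in the low mice and at 497 to 917 in the high mice. Syt6 was at 1361 to 1688 in the low mice and at 1659 to 1958 in the high mice. Among WT mice alone, WT3 and WT5 had Bcl11b at 2296 to 2329 and Syt6 at 1361 to 1382, against 2546 to 3143 and 1659 to 1944 in the other 3 WT mice. Tle4 (1871 to 2005 against 2011 to 2066) and Nxph4 (65.0 to 78.1 against 81.8 to 135) were separated in the same direction. Foxp2 (518 to 575 against 569 to 698) and Tbr1 (3935 to 4190 against 3530 to 4252) overlapped. Fezf2, Etv1 and Sox5 stood the other way round among WT mice, with Fezf2 at 1467 to 1492 in WT3 and WT5 and at 1153 to 1310 in the others. Etv1 was at 3752 to 4117 against 3230 to 3470, and Sox5 at 2385 to 2426 against 1909 to 2284. HT5, the HT mouse of the low set, did not share this, with Fezf2 at 1152, Etv1 at 3214 and Sox5 at 1989. The share of all tested genes separated between these sets of WT mice was not counted, so the separations are given as description only.

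Within the 7 mice of the high set, the log2 level of each member was set against the striatum score, with exact permutation p-values adjusted over the 9 relations. This relation was examined after the sets had been seen. For Foxp2 Pearson's r was 0.91 (exact p = 0.00437, adjusted p = 0.0393) and Spearman's rho 0.89 (exact p = 0.0123, adjusted p = 0.0554). Without the 2 mice farthest from the median score, HT3 and HT4, r fell to 0.62. For Bcl11b r was 0.86 (exact p = 0.0143, adjusted p = 0.0643) and rho 0.96 (exact p = 0.00278, adjusted p = 0.025), and r was 0.99 without HT3 and HT4. Each of these relations passed with 1 of the 2 coefficients. No other member passed with either, and their r ranged from -0.24 for Nxph4 to 0.78 for Etv1 and Syt6.

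**Figure D4:**
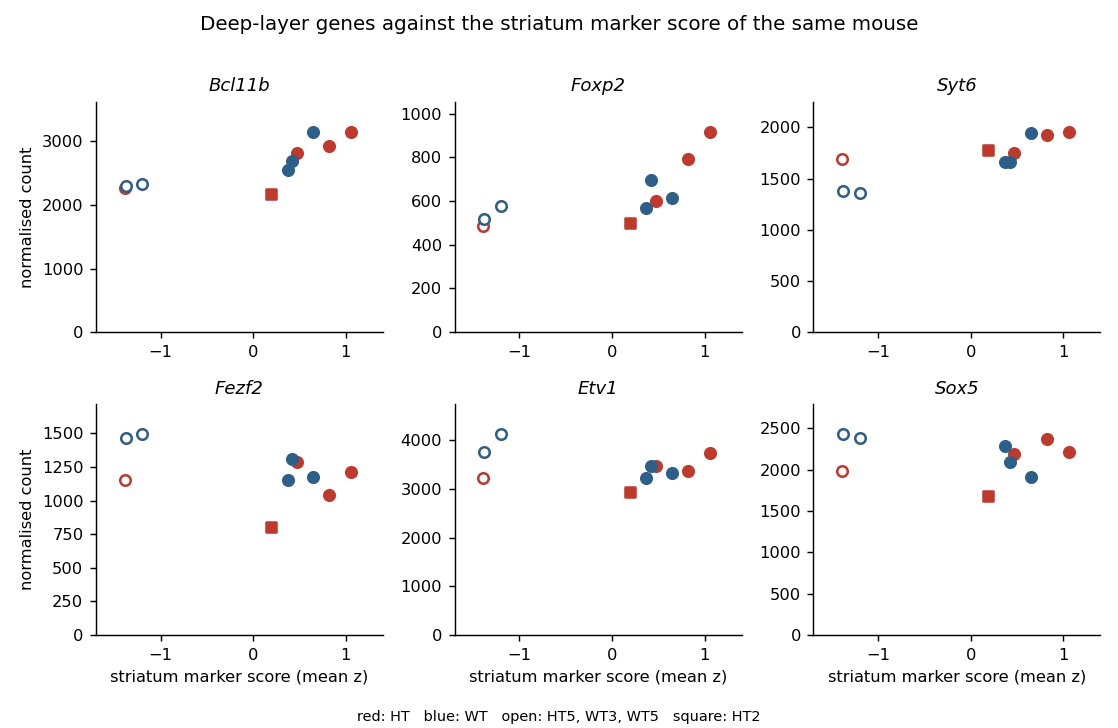
Normalised counts of deep-layer genes against the striatum marker score (mean z-score of 15 markers) in each mouse, HT in red and WT in blue, with open circles for the 3 low mice and a square for HT2. HT5, WT3 and WT5 have Bcl11b at 2260 to 2329, and among the other 7 mice Pearson's r with the score is 0.86 for Bcl11b and 0.91 for Foxp2.

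The comparison of genotypes was therefore repeated in the 7 mice of the high set, 4 HT and 3 WT. The low set, with 1 HT mouse, was too small for its own comparison. The log2 fold change of Fezf2 was then -0.18 and that of Syt6 0.08, with Bcl11b at -0.02 and Nxph4 at -0.36, and no member passed in limma. With the striatum score as a covariate in all 10 mice the log2 fold changes were -0.24 for Fezf2, 0.13 for Syt6, 0.01 for Foxp2 and -0.05 for Bcl11b, and again no member passed.

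Members were also compared with each other across the 7 high-set mice, as deviations from the genotype means. The deviations were permuted over all 7 mice without regard to genotype, so the permutation p-values for pairs are approximate. Of 36 pairs, 30 had a positive r, with a median of 0.64. Fezf2 with Tle4 (r = 0.97, permutation p = 0.00139, adjusted p = 0.0321, rho = 0.93) and Tbr1 with Tle4 (r = 0.92, permutation p = 0.00179, adjusted p = 0.0321, rho = 0.89) passed over the 36 pairs by Pearson's r, and no pair passed by Spearman's rho (adjusted p = 0.148 for both). Without the 2 mice farthest from the median of the first gene, r was 0.85 and 0.65. Without HT2, 18 of 36 pairs were positive, the median r was 0.01, and r was again 0.97 for Fezf2 with Tle4 and was 0.38 for Tbr1 with Tle4. With 6 mice a single pair cannot pass over 36 pairs, so that only r is given without HT2.

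Genes whose log2 level was most like that of each member over the 10 mice were found as a description only. The striatum sets and the libraries are shared by all genes and enter these values. Sox5 was most like the adhesion gene Cadm2 (r = 0.978), Fezf2 like Coro2a (r = 0.975), Syt6 like the growth factor gene Tgfa (r = 0.964) and Etv1 like the diacylglycerol kinase gene Dgke (r = 0.963). Tbr1 was most like Rap1gds1 (r = 0.96), Foxp2 like Strn (r = 0.945), Tle4 like Rap1gap (r = 0.942), Bcl11b like the contactin gene Cntn2 (r = 0.935) and Nxph4 like Gm2415 (r = 0.91). None of these genes differed between genotypes at an adjusted p under 0.05 in limma.

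Further genes of the same layers were read in the same way. None of 12 other layer V genes passed the adjusted threshold. At an unadjusted limma p under 0.05 there were 3, all lower in HT (4.52% of all tested genes were), and 9 of 12 had a lower HT mean, with a median log2 fold change of -0.14. HT2 had the lowest sum of this list, whereas HT1 (17216) and HT3 (16639) lay in the upper part of the WT range (15343 to 17051) or just above it. Without HT2, 10 of 12 were lower with a median of -0.10, and 2 were lower and 2 higher at an unadjusted limma p under 0.05. Over the fits without 1 mouse the lower calls numbered 2 to 5, the most without WT1. S100a10, which encodes the annexin partner p11 and marks a class of layer V neurons, had 640 ± 47.3 in HT and 770 ± 68.0 in WT (log2 fold change -0.27, SE 0.07, limma adjusted p = 0.414). The neuropeptide receptor gene Qrfpr had 41.1 ± 7.98 and 55.3 ± 4.84 (log2 fold change -0.44, SE 0.17, limma adjusted p = 0.504). It is a low gene, at 28.1 to 62.9 in single mice, and its groups did not overlap, as in 1.62% of tested genes. Over all tested genes the median log2 fold change was -0.004.

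Of 11 other layer VI genes none passed and none had an unadjusted limma p under 0.05. In HT 5 were higher and 6 lower, with a median log2 fold change of -0.01. Without HT2, 9 of the 11 were higher, with a median of 0.05. The smallest p-values were those of Osr1 (log2 fold change -0.27, adjusted p = 0.572) and Sla (-0.11, adjusted p = 0.61). Of 10 subplate and layer VIb genes 8 were higher and 2 lower in HT, with a median of 0.13. Without WT3 the split was 5 and 5, with a median of -0.01. Lpar1, a lysophosphatidic acid receptor, had a log2 fold change of 0.25 (adjusted p = 0.596) and Svil, which encodes supervillin, 0.19 (adjusted p = 0.634). None of these 10 had an unadjusted limma p under 0.05.

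Upper-layer genes were split evenly, with 8 of 17 higher in HT, a median log2 fold change of -0.01 and none past the threshold. At an unadjusted limma p under 0.05, 1 was higher and 2 were lower. The LIM-homeodomain gene Lhx2, one of the lower genes, had 1366 ± 62.8 in HT and 1508 ± 78.9 in WT (log2 fold change -0.14, SE 0.05, limma adjusted p = 0.482). Lhx2 also belongs to a list of 19 regulators of projection neuron identity, of which 10 were higher and 9 lower and none passed (median 0.01). At an unadjusted limma p under 0.05 there were 2 of these 19, both lower.

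Among 20 paralogues of the members, Fezf1 was not tested because of its low level. None of the other 19 passed, 10 were higher and 9 lower in HT, and the median was 0.01. Syt10 had a log2 fold change of 0.28 (adjusted p = 0.53) and Tle3 one of -0.10 (adjusted p = 0.599). Bcl11a, the close relative of Bcl11b, had a log2 fold change of 0.01 and Foxp1, the relative of Foxp2, one of 0.07. Eomes and Tbx21, relatives of Tbr1 that are also on the olfactory bulb list, had the largest log2 fold changes, 1.3 (adjusted p = 0.686) and 1.06 (adjusted p = 0.718). Tbx21 was low and uneven, at 37.3 ± 30.5 in HT and 31.7 ± 38.8 in WT, with WT2 at 1.83, WT5 at 2.26 and WT4 at 82.0. Its HT mean was 118% of the WT mean, so its log2 fold change rests on mice near the floor. The names Bcl11a, Foxp1, Eomes and Tbx21 were chosen with the values in view.

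**Figure D5:**
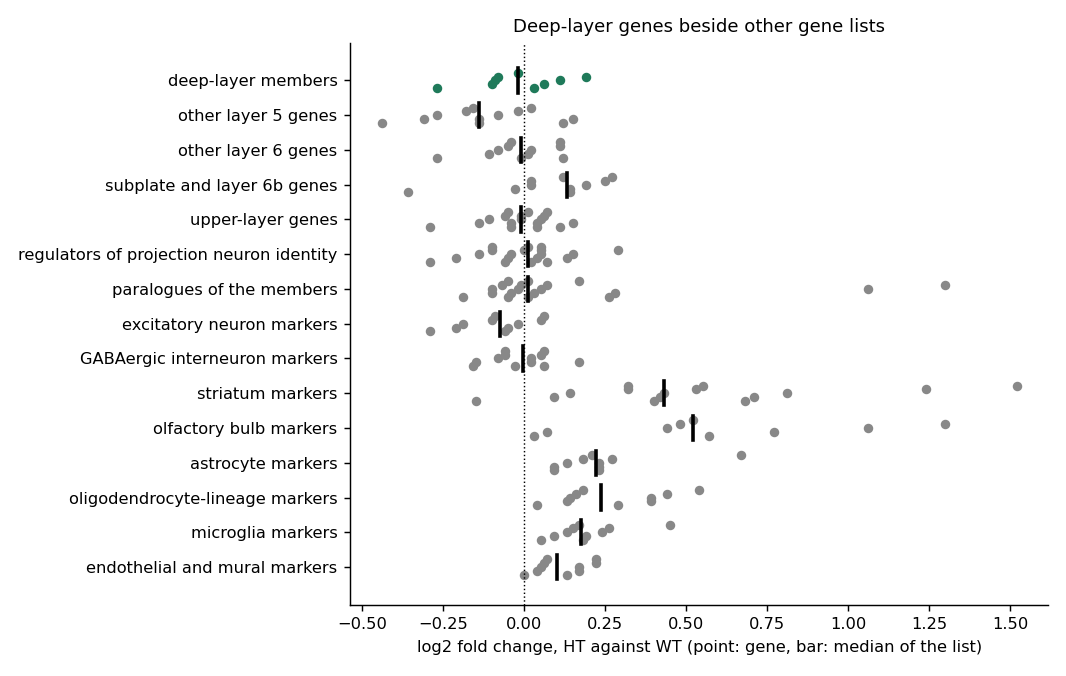
Log2 fold change, HT against WT, of each tested gene in the lists of layer genes, regulators, paralogues and cell type markers, with 1 point per gene and the list median marked. The medians of the layer lists lie between -0.14 and 0.13, and those of the striatum (0.43) and olfactory bulb (0.52) markers stand highest.

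Markers of other cells were measured beside these genes, and none passed the adjusted threshold in limma. All 10 astrocyte markers were higher in HT (median log2 fold change 0.22), 6 of them at an unadjusted p under 0.05, a call made for 4.71% of all tested genes in that direction. Their sum ranged from 164995 to 210707 in HT and from 151623 to 177997 in WT. All 10 microglia markers (median 0.17, 3 at an unadjusted p under 0.05) and all 10 oligodendrocyte-lineage markers (median 0.24, 1 at an unadjusted p under 0.05) were higher on average as well. In the microglia sum HT2 (15727) and HT5 (14727) lay above every WT mouse, whereas HT1, HT3 and HT4 (11056 to 12138) overlapped the WT range of 10780 to 12280. In the astrocyte sum HT2 (210707), HT5 (200548) and HT4 (191511) lay above every WT mouse, and HT1 and HT3 did not. The oligodendrocyte-lineage sum of HT mice (65801 to 89765) lay inside the WT range (38667 to 92337), in which WT3 was lowest and WT2 highest. Without HT2 the unadjusted calls were 3 for astrocytes and 0 for microglia. Without WT3 they were 2 for astrocytes, 1 for microglia and 0 for the oligodendrocyte lineage, the last with a median of 0.13. Other single mice left out gave 3 to 6, 0 to 7 and 0 to 6 calls for these 3 lists. In the high set 8 of 10 markers were higher in each list. There was then 1 such call for astrocytes (median 0.13), 0 for microglia (median 0.14) and 0 for the oligodendrocyte lineage (median 0.08). Striatum markers were higher in HT for 14 of 15 genes (median 0.43) and olfactory bulb markers for 9 of 9 (median 0.52). The striatum median was 0.18 without WT3, 0.20 without WT5, 0.14 in the high set, and 0.81 with 8 of 15 genes at an unadjusted p under 0.05 without HT5. Without HT2 olfactory bulb markers were higher for 7 of 9, with a median of 0.27. Without WT4 they were higher for 9 of 9, with a median of 0.84. The calls at an unadjusted limma p under 0.05 were then 4, against 1 with all mice. Of 10 excitatory neuron markers 8 were lower in HT (median -0.08), 1 of them at an unadjusted limma p under 0.05. Without HT2 the split was 6 lower and 4 higher, with 1 of each at an unadjusted limma p under 0.05. No marker of these lists was at 0 in every mouse, and their part in the values of the deep-layer genes was not tested except by the marker scores named above.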

How the data were processed

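Sample titles gave the genotype and the replicate number of each mouse. The authors made poly-A selected, stranded, paired-end libraries, estimated transcript abundance with Salmon 1.1.0 on GRCm38, summed it to genes with tximport and divided it by size factors with DESeq2 1.30.1. What was deposited is thus a size-factor-scaled signal for each gene, which the text names the normalised count and which is not a number of reads. At most 18.8% of the values under 30 in a sample were whole multiples of a common step (tolerance 0.02), so depth was not recovered and no count test was run in place of the DESeq2 test of the study. Because size factors scale every library, a change in total RNA per cell would not be seen.

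Symbols, positions and exonic lengths came from GENCODE M21 of GRCm38, which held 18205 of the 18216 identifiers. The 2 symbols Lratd2 and Tle5 were matched through RefSeq synonyms. Values were transformed as log2(value + 1), and 16781 genes with a mean of at least 10 went into a limma fit (version 3.58.1, R 4.3.3, trended eBayes, genotype only) with Benjamini-Hochberg adjustment over all of them. This scale understates changes of low genes, although mice near the floor can also enlarge a mean log2 difference, as for Tbx21. Single genes were also tested by exact two-sided permutation of all 252 assignments, for which the smallest possible p is 0.00794. The mice are separate animals, so p-values measure the spread between them, but sequencing batches and litters are not given. Correlations were tested by two-sided permutation of all 5040 orders. For pairs of members this is approximate, because deviations from genotype means are not freely exchangeable between genotypes.

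The members and gene lists were chosen with earlier results of these data known. Named with values were Arid1b, the members, the 2 genes with the smallest p in each list (all that passed, where any did) and the gene most like each member. Some genes of these lists are not reported here by name. Alternative fits left out each mouse in turn, used pseudocounts of 0.5 or 10, dropped the filter or set it at 50, rescaled by upper quartile or quantiles, removed the variance trend, weighted samples by quality, and added the replicate block or a striatum score. The olfactory bulb score, and the fit without HT5, WT3 and WT5, were added after the data were seen. The fits were tested on simulated data. Other steps were run in Python 3.11.15 with scipy 1.17.1, numpy 2.4.6, matplotlib 3.10.9 and pandas 2.3.3.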

Additional observations from a re-analysis of the deposited data

How the results depend on the processing

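In 22 alternative fits across all genes no member passed at an adjusted p under 0.05, and none passed at an adjusted p under 0.1 in the reported fit, while 2 had an unadjusted limma p under 0.05. That count of 2 was 0 without HT4, WT3 or WT5, without HT5, WT3 and WT5 together, without the variance trend and with either marker score. The smallest adjusted p of any member was 0.336, for Syt6 without WT4. Arid1b passed in every fit. Over all genes, 3 to 4 passed in each of these fits except that with the olfactory bulb score as a covariate, where 5 did. Of 198 refits of single members 183 kept the direction and 15 reversed it, none of them in Fezf2, Syt6 or Tle4. Tbr1 was 0.02 under sample quality weights and 0.07 under the olfactory bulb score, Bcl11b was -0.05 with the striatum score, and without HT5, WT3 and WT5 Bcl11b was -0.02, Sox5 0.00 and Etv1 0.01 on the log2 scale. The cause was not tested.

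Leaving out 1 mouse at a time gave log2 fold changes of -0.33 to -0.17 for Fezf2, -0.04 to 0.10 for Bcl11b, -0.14 to -0.05 for Etv1, -0.07 to 0.07 for Tbr1, -0.02 to 0.20 for Foxp2, 0.03 to 0.12 for Tle4, -0.15 to -0.02 for Sox5, 0.14 to 0.27 for Syt6 and -0.18 to 0.08 for Nxph4. Those of Tbr1, Bcl11b, Foxp2 and Nxph4 changed sign. The number of correlated pairs of members, 2 as reported, ranged from 0 to 6 when 1 mouse of the 7 was left out. It was 6 without HT1 and 0 without HT2, HT4, WT1, WT2 or WT4. With 6 mice there are 720 orders and the smallest permutation p is 0.00139, which gives 0.05 for 1 pair over 36, so a count of 0 says nothing about stability.

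The replicate numbers belong to different mice. Same-numbered mice had a mean correlation of 0.0375 in their deviations (-0.041 to 0.101), against -0.00909 for other numbers, and 5 of 10 mice correlated best with their own number, which is a hint of pairing. Because the labels tie the numbers to no litter or batch and the correlations were not all over 0.1, the numbers were not taken as pairs. With the replicate block 3 genes and 0 members passed, and the log2 fold changes of Fezf2 and Syt6 were -0.27 and 0.19. Depth is unknown, so the intervals cover only the spread between 5 mice per genotype, and a log2 fold change as low as -0.52 in Nxph4 or Fezf2 was not excluded.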

Other observations

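GABAergic interneuron markers, which mark the inhibitory neurons that share the cortical layers with the projection neurons, were divided evenly, with 6 of 12 higher in HT, a median log2 fold change of 0.00 and none past the adjusted threshold. Npy, the gene of neuropeptide Y, was at 1875, 1834, 1757, 1847 and 1841 in HT1 to HT5 and at 1676, 1666, 1576, 1561 and 1682 in WT1 to WT5, so that the groups did not overlap, as in 1.62% of tested genes. Its log2 fold change was 0.17 (SE 0.04, limma adjusted p = 0.39). Vip, which marks another interneuron class, had 735 ± 44.0 in HT and 823 ± 82.6 in WT (log2 fold change -0.16, limma adjusted p = 0.54). Among the olfactory bulb markers, Trh, the thyrotropin-releasing hormone gene, had the smallest p-value, with 189 ± 18.4 in HT and 134 ± 29.5 in WT (log2 fold change 0.52, SE 0.14, limma adjusted p = 0.414). HT2, the library with the highest sum of these markers, was highest in Trh at 218.

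Of the glial and vascular markers with the smallest p-values, Fgfr3 of astrocytes had 3413 ± 228 in HT and 2952 ± 241 in WT (log2 fold change 0.21, SE 0.06, limma adjusted p = 0.452). Trem2 of microglia had 243 ± 80.2 and 171 ± 19.3 (log2 fold change 0.45, SE 0.18, limma adjusted p = 0.504), with HT2 and HT5 at 279 and 368 against 147 to 199 in all other mice. Cspg4 (NG2) of oligodendrocyte precursors, which had the smallest p-value of its list, had 1254 ± 103 and 1107 ± 135 (log2 fold change 0.18, limma adjusted p = 0.536). Mog of oligodendrocytes had 615 ± 98.3 and 454 ± 184 (log2 fold change 0.54, SE 0.25, limma adjusted p = 0.542), with WT3 lowest at 199. Endothelial and mural markers had a median log2 fold change of 0.10, with 9 of 10 higher in HT and none at an unadjusted limma p under 0.05. Without HT2 the split was 6 and 4 with a median of 0.04, and without HT3 the median was 0.17 with 5 of 10 at an unadjusted limma p under 0.05. The 9 members, Arid1b and the striatum and olfactory bulb scores were each examined within HT and within WT, 24 groups of 5 mice in all, for a mouse whose gap to the next exceeded 0.71 of the group's range (Dixon's criterion). None did, HT2 included, where chance gives about 1.2. Sums of other marker lists were not examined in this way.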
